A study of Mus musculus with 6 samples.

Results

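Oxidative phosphorylation is carried out by 5 protein complexes of the inner mitochondrial membrane, and 87 of the 14608 genes in the deposited tables bore the symbol of one of their nuclear-encoded components. Members were taken by symbol alone, as those beginning with Nduf followed by a, b, c, s or v (complex I, 45 genes), Sdha to Sdhd (complex II, 4), Uqcr (complex III, 8), Cox4 to Cox8 (complex IV, 13) and Atp5 (complex V, 17). The symbol rule uses no expression value, although the module itself was picked with earlier results of these data known. Of the 87, 76 encode subunits or subunit isoforms, 8 are the complex I assembly factors Ndufaf1 to Ndufaf8, and 3 are not structural subunits (Cox7a2l, Atp5s and Atp5sl). They were measured by RNA-seq in regulatory T (Treg) cells of the spleen, which hold other immune cells in check and need the transcription factor Foxp3. The series compared mice that differ in Cdc42, a small GTPase that organises the actin cytoskeleton: 2 wild-type mice (WT), 2 heterozygous knockout mice (Cdc42+/-) and 2 homozygous knockout mice (Cdc42-/-). Spleen cells of every mouse were enriched for CD4 cells on magnetic columns, and the cells positive for CD4 and the reporter YFP were then sorted, so that the sorted cells of all 3 genotypes carried YFP. The labels name neither what drives YFP or the deletion, nor the deleted exons, nor the age or sex of the mice.

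Complex I oxidises NADH and complex II oxidises succinate, and both pass electrons to ubiquinone. Complex III passes them on to cytochrome c and complex IV to oxygen, while complexes I, III and IV pump protons, and complex V, the ATP synthase, uses the returning protons to make ATP. Treg cells are known to rely more on this pathway than conventional effector CD4 T cells do. All of complex II and most subunits of the other complexes are encoded in the nucleus. The subunits encoded by mitochondrial DNA were not analysed here (0 of 13 symbols in the tables).

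The libraries held between 8556576 and 17796100 reads in genes. The Treg label was checked against 7 markers, all 7 of them detected in every library, with a summed level of 1254 to 1395 RPKM (reads scaled to gene length and library size) in the WT and Cdc42+/- libraries, 1167 in Cdc42-/- replicate 1 and 909 in replicate 2. Foxp3 itself stood at 131 and 118 RPKM in the WT pair, 113 and 103 in the Cdc42+/- pair and 118 and 58.4 in the Cdc42-/- pair. Replicate 2 of Cdc42-/- stood apart: 10 myeloid markers summed to 825 RPKM there against 3.51 to 19.0 in the other 5 libraries (C1qb or C1qc at 0 in 3 of these), and 7 neutrophil markers to 519 against 15.5 to 57.1. The 5 erythroid markers in the tables summed to 37.1 RPKM in that library, 8.54 in Cdc42-/- replicate 1 and 0.831 to 1.70 elsewhere. Cdc42 read 166 and 161 RPKM in the WT pair, 164 and 156 in the Cdc42+/- pair and 122 and 173 in the Cdc42-/- pair, so its level over the whole gene did not check the genotype labels. Because of these values the median shifts of the gene groups in Cdc42-/- against WT are also given with each Cdc42-/- library alone. Fewer cells of a type and less RNA per cell cannot be told apart in sorted bulk RNA.

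In WT Treg cells the members were among the well-expressed genes, and 80 of 87 exceeded 5 RPKM in every library. RPKM is scaled for length, so levels can be compared between genes. The median member level in the WT replicates was 42.0 and 42.6 RPKM for complex I, 52.6 and 53.8 for complex II, 72.1 and 75.9 for complex III, 99.3 and 107 for complex IV, and 116 and 132 for complex V. That order of the 5 complexes was the same in both WT libraries. The most abundant members were Atp5b, the catalytic beta subunit of ATP synthase (311 and 323 RPKM in WT), and Cox4i1, the largest nuclear-encoded subunit of complex IV (263 and 306 RPKM). The 7 members under 5 RPKM in at least 1 library were Atp5s, the assembly factors Ndufaf4, Ndufaf5 and Ndufaf6, and the tissue-restricted paralogs Cox6b2, Cox7a1 and Ndufa4l2.

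All members together took 0.604% and 0.654% of the reads in the WT pair, 0.605% and 0.619% in the Cdc42+/- pair and 0.617% and 0.812% in the Cdc42-/- pair. Only Cdc42-/- replicate 2 lay outside the range of the WT libraries. The median member level was likewise highest in that library, at 51.1 and 58.2 RPKM in the WT pair, 53.2 and 54.5 in the Cdc42+/- pair and 53.7 and 73.5 in the Cdc42-/- pair. There, too, each of the 5 complexes had its highest median: 52.3 RPKM for complex I, 84.9 for complex II, 110.0 for complex III, 161 for complex IV and 164 for complex V. The plot of all tested members by library shows this shift of the Cdc42-/- replicate 2 points.

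**Figure D1:**
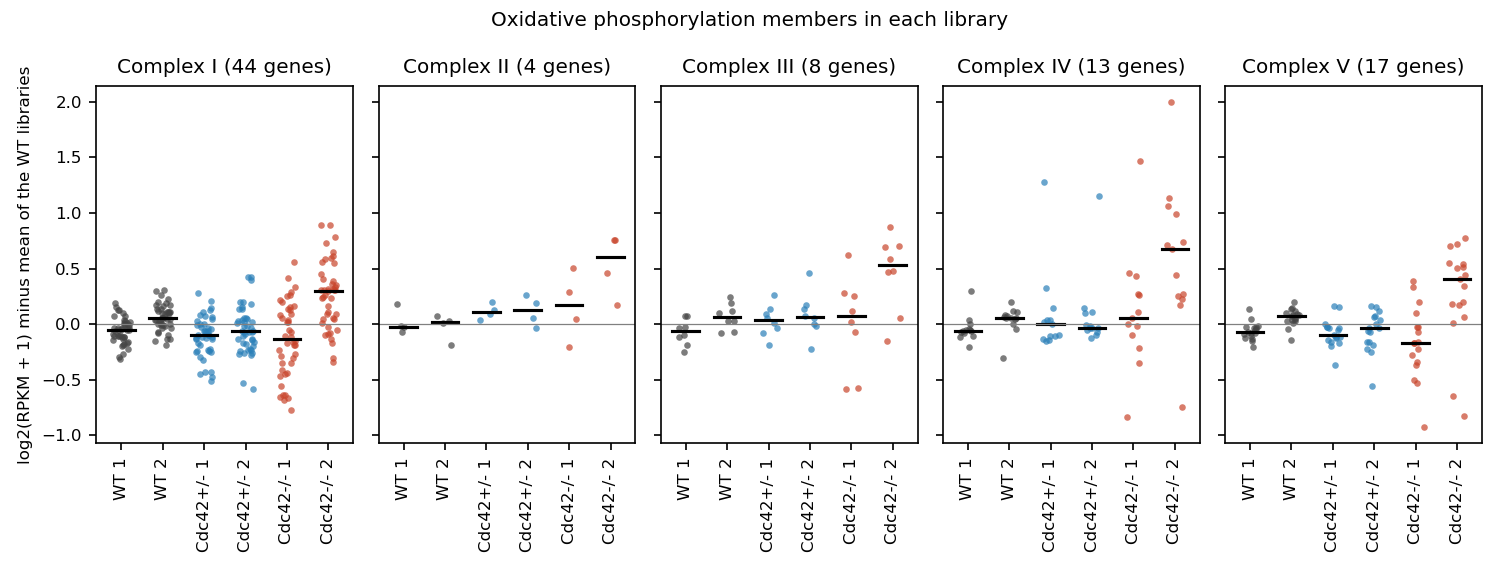
Level of each tested member in each library, as log2(RPKM + 1) minus the mean of the WT libraries, by complex as assigned from the symbol; each point is a gene and each bar the median. The medians of Cdc42-/- replicate 2 lie above 0 in all 5 panels, whereas those of replicate 1 lie on both sides of 0.

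Homozygous loss was compared with WT for 86 members in a limma fit to log2(RPKM + 1) over all genes, with Benjamini-Hochberg adjustment. Of these, 4 passed the adjusted threshold of 0.05: Uqcrfs1, Sdhb and Cox6b2 were higher in Cdc42-/- and Cox7a2l was lower. Cox6b2 entered the test only through the Cdc42-/- libraries, so it is given as a description, which leaves 3 calls. The share of all 12233 genes tested that passed was 11.4% (6.86% higher and 4.57% lower). A total of 22 members had an unadjusted p under 0.05, against 29.3% of all genes. The fitted log2 fold change was positive in 57 of 86 members with a median of 0.16, where the median over all genes tested was 0.01. For a typical member the 95% confidence interval, which is not adjusted for the number of genes, spanned 0.42 on either side of the estimate. With 2 mice a group, changes larger than that could also miss the adjusted threshold, as for Cox5a (log2 fold change 0.75, limma adjusted p = 0.068). In 31 members both Cdc42-/- libraries lay above both WT libraries and in 8 both lay below, while among all genes 28.9% lay above and 27.1% below (56% in all). Of the 8 lower ones, 3 encode subunits (Ndufa6, Ndufa7 and Uqcrh), 2 are assembly factors (Ndufaf4 and Ndufaf5) and 3 are the non-subunits Cox7a2l, Atp5s and Atp5sl. The plot of fold changes sets out the members with their intervals.

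**Figure D2:**
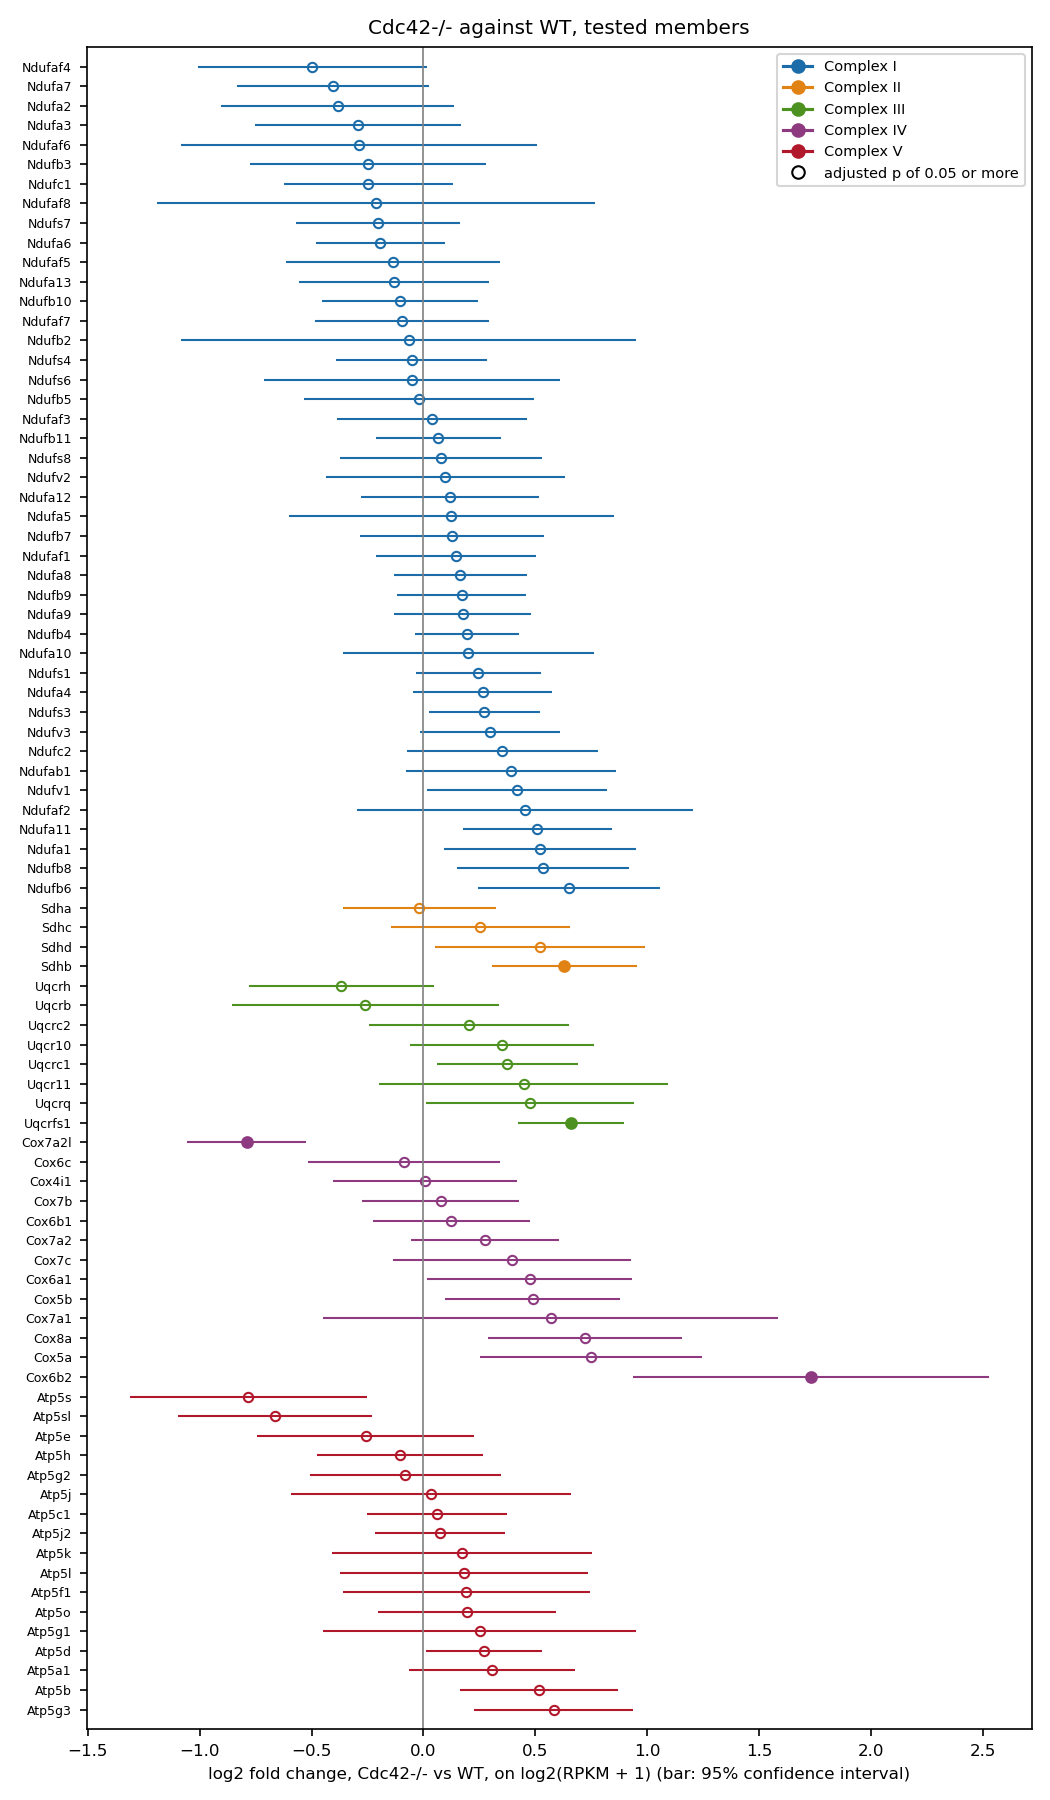
Fitted log2 fold change of Cdc42-/- against WT for 85 of the 86 tested members on the log2(RPKM + 1) scale, with 95% confidence intervals, by complex as assigned from the symbol. Filled points passed an adjusted p of 0.05: Sdhb, Uqcrfs1 and Cox6b2 to the right of 0 and Cox7a2l to the left.

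The size and even the sign of the common shift depended on which Cdc42-/- library was used. Without Cdc42-/- replicate 2 the median member log2 fold change against WT was -0.07 with 37 of 86 positive, and 8 members were called higher and 11 lower (18.5% of all genes were called). Without replicate 1 it was 0.32 with 73 of 86 positive, and 40 were called higher and 2 lower (36.2% of all genes). A group left with 1 library is assumed in these fits to vary like the other groups. The squared difference between replicates, relative to counting noise, averaged 39.3 per member in Cdc42-/-, 7.49 in WT and 3.21 in Cdc42+/-. The assumption is therefore poor for Cdc42-/-, and the calls of these fits are descriptions. The members past the threshold are described next with the values of both Cdc42-/- libraries.

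Cox7a2l encodes a relative of the complex IV subunit Cox7a2 that joins complexes III and IV into respiratory supercomplexes. Its gene lies at chr17:83501917-83514333 (GRCm38.p6, minus strand), with a counted length of 1149 nt. It stood at 238 and 262 RPKM in the WT pair, 226 and 243 in the Cdc42+/- pair and 139 and 149 in the Cdc42-/- pair. Both Cdc42-/- libraries were lower than the other 4, and the gap was larger than the spread within any genotype. The means were 249.8 ± 17.2 (SD, n = 2) in WT, 235 ± 12.2 in Cdc42+/- and 144 ± 6.86 in Cdc42-/-, a fall of 42.4% from WT (log2 fold change -0.79, SE 0.11, limma adjusted p = 0.0090). The fold change was -0.84 without Cdc42-/- replicate 2 and -0.74 without replicate 1. The call was lost without WT replicate 1 (adjusted p = 0.0711) or replicate 2 (0.101) and held in the other 13 of 15 alternative settings. In the authors' deposited table Cox7a2l was also lower, with a log2 fold change of -0.84 and an adjusted p of 0.00445, and it was the only member past 0.05 there (8.66% of all 14608 genes were). In their comparison of Cdc42+/- with WT no member passed in the authors' deposited table (0 of 87, against 2.28% of all genes).

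Uqcrfs1 encodes the Rieske iron-sulfur protein, the complex III subunit that takes the electron from ubiquinol. The gene lies at chr13:30540312-30545316 on the minus strand. It stood at 47.5 and 49.5 RPKM in the WT pair, 51.8 and 54.9 in the Cdc42+/- pair and 75.4 and 79.0 in the Cdc42-/- pair. The 3 genotypes did not overlap, and both Cdc42-/- libraries lay close together above the rest. Means were 48.5 ± 1.44 (SD, n = 2) and 77.2 ± 2.57 RPKM in WT and Cdc42-/-, a 1.59-fold rise (log2 fold change 0.66, SE 0.10, adjusted p = 0.011). It was 0.63 without Cdc42-/- replicate 2 and 0.69 without replicate 1. The call held in 10 of 15 alternatives and was lost, with adjusted p between 0.0549 and 0.105, when the fit used only WT and Cdc42-/- or left out any one WT or Cdc42+/- library.

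Sdhb encodes the iron-sulfur subunit of complex II, which carries electrons from the flavin of Sdha to the membrane. The gene lies at chr4:140961271-140979198 on the plus strand. It stood at 58.4 and 64.8 RPKM in the WT pair, 65.5 and 73.8 in the Cdc42+/- pair and 87.5 and 105 in the Cdc42-/- pair. The Cdc42-/- libraries were above all others, and replicate 2 was the higher one. Means were 61.6 ± 4.48 (SD, n = 2) and 96.1 ± 12.2 RPKM in WT and Cdc42-/-, 1.56-fold (log2 fold change 0.63, SE 0.13, adjusted p = 0.035). The log2 fold change was 0.50 without Cdc42-/- replicate 2. The call was lost in 6 of 15 alternatives, with adjusted p of 0.20 and 0.15 without WT replicates 1 and 2, 0.098 and 0.099 without Cdc42+/- replicates 1 and 2, 0.099 with only WT and Cdc42-/- in the fit, and 0.068 with array weights.

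Cox6b2 is the testis isoform of a complex IV subunit at the interface of the cytochrome oxidase dimer, and its level was very low throughout. It was read 12 and 1 times in the WT pair, 12 and 10 times in the Cdc42+/- pair and 34 and 45 times in the Cdc42-/- pair. This corresponds to 0.677 and 0.105 RPKM in the WT pair, 0.703 and 0.505 in the Cdc42+/- pair and 2.76 and 4.43 in the Cdc42-/- pair. Both Cdc42-/- libraries exceeded the other 4 (log2 fold change against WT 1.73 on the log2(RPKM + 1) scale, SE 0.33). The mean of those 4 was 0.497 RPKM, under the minimum of 0.5, so the gene was tested only because it was high in Cdc42-/-, and its values are a description. The broadly expressed isoform Cox6b1 stood at 163 and 192 RPKM in WT and 174 and 213 in Cdc42-/-, so even at its highest Cox6b2 was 2.08% of Cox6b1.

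**Figure D3:**
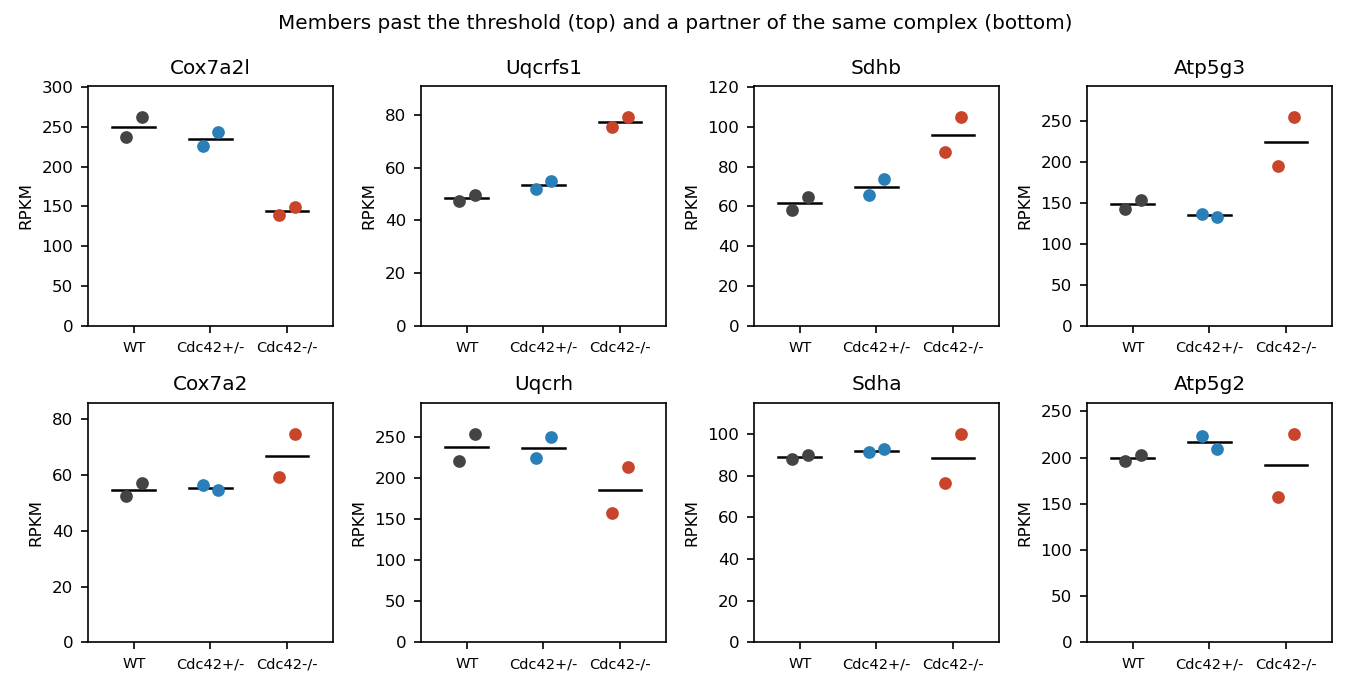
RPKM by genotype for 4 members past the threshold in a comparison with Cdc42-/- (top) and for a paralog or partner from the same complex (bottom); points are libraries and bars are means of n = 2. Cox7a2l is lower and Uqcrfs1, Sdhb and Atp5g3 are higher in both Cdc42-/- libraries, while Sdha and Atp5g2 have one Cdc42-/- library below and one above the WT pair, and Uqcrh is lower and Cox7a2 slightly higher in both.

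Within a library 3 of the called members differed in their ratio to a partner, and such a ratio does not depend on library scaling. Cox7a2l over Cox7a2 was 4.53 and 4.61 in the WT pair, 4.02 and 4.47 in the Cdc42+/- pair and 2.36 and 1.99 in the Cdc42-/- pair. Sdhb over Sdha was 0.665 and 0.722 in the WT pair, 0.717 and 0.798 in the Cdc42+/- pair and 1.14 and 1.05 in the Cdc42-/- pair. Uqcrfs1 over Uqcrh, the hinge protein of complex III, was 0.215 and 0.195 in the WT pair, 0.231 and 0.220 in the Cdc42+/- pair and 0.478 and 0.371 in the Cdc42-/- pair. In each of the 3 ratios both Cdc42-/- libraries lay outside the range of the other 4. The myeloid markers were high in replicate 2 alone, while the erythroid markers were higher in both Cdc42-/- libraries (8.54 and 37.1 RPKM) than elsewhere (0.831 to 1.70), and their part in the ratios was not tested. The pairs Sdhb with Sdha and Uqcrfs1 with Uqcrh were picked after their values were seen, so these ratios are descriptions.

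The promoters of the members with the clearest levels are shown here because the genes of this module are classically linked by NRF-1, ETS (GABP) and YY1 sites near their starts. Each sequence runs from 250 bases before to 50 after a RefSeq start (GRCm38.p6), 5′ to 3′ on the strand of the gene, with the motif GCGCATGCG (NRF-1), CCGGAAG (ETS family) or AANATGGC (YY1), on either strand, in capitals.
Cox7a2l, lower in Cdc42-/-, chr17:83514284-83514583, minus strand: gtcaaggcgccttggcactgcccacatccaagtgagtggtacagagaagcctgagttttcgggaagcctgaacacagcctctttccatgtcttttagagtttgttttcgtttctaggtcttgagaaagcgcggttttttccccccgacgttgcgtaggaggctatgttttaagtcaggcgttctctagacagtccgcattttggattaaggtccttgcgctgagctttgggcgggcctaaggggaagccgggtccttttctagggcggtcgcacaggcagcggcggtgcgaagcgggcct
Uqcrfs1, higher in Cdc42-/-, chr13:30545267-30545566, minus strand: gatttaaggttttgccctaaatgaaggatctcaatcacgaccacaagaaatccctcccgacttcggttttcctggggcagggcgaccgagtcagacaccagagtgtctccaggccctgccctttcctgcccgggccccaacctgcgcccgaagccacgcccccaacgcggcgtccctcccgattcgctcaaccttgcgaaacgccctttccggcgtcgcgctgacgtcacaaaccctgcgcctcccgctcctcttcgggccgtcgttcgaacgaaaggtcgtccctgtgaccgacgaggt
Sdhb, higher in Cdc42-/-, chr4:140961021-140961320, plus strand: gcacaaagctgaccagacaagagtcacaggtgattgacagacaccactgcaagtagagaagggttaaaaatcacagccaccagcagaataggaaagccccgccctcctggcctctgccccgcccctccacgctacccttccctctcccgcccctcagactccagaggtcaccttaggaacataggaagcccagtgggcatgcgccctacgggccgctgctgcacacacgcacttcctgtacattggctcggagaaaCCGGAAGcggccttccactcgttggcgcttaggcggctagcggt
Atp5g3, higher in Cdc42-/- than in Cdc42+/-, chr2:73911277-73911576, minus strand: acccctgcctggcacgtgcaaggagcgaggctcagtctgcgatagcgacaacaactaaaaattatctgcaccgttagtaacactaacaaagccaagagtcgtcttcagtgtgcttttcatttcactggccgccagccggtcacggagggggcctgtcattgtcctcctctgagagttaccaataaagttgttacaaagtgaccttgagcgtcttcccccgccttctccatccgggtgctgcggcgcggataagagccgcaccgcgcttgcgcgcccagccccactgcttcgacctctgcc
Atp5g2, the paralog of Atp5g3 that was not called, chr15:102670998-102671297, minus strand: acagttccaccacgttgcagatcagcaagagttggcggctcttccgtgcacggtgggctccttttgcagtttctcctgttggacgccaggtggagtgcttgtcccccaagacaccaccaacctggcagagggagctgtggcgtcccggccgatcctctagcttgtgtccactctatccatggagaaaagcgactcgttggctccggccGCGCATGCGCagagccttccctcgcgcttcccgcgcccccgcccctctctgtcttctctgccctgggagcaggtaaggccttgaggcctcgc
The Sdhb window holds 1 ETS motif, starting at base 257, and the Atp5g2 window holds the NRF-1 motif on both strands, starting at bases 209 and 210. No match means only that these letters are not in these 300 bases. Over the 74 members with a promoter in the table, the NRF-1 motif was in 10 (13.5%, against 1.95% of all 27025 genes with a promoter), the ETS motif in 18 (24.3% against 9.93%) and the YY1 motif in 20 (27.0% against 6.96%). Of the 4 members shown for their level, only Sdhb held any of these motifs in its window. The Atp5g3 window sits at an inner start, as the gene runs on upstream to chr2:73912464, and the bases there were not searched.

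Complex I takes electrons from NADH, and none of its 44 tested members was called in Cdc42-/- against WT. The median log2 fold change was 0.09 (25 of 44 positive), -0.14 without Cdc42-/- replicate 2 and 0.30 without replicate 1. By module, the median was 0.11 over the 8 subunits of the NADH-oxidising arm, 0.08 over the 5 of the quinone-binding arm, 0.15 over the 22 other accessory subunits and -0.12 over the 8 assembly factors. Without Cdc42-/- replicate 2 these medians were -0.09, -0.16, -0.02 and -0.21, and without replicate 1 they were 0.31, 0.32, 0.29 and 0.16, so the sign of each rested on which library was used.

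Among core subunits, Ndufs1, the largest iron-sulfur subunit, was at 24.7 and 26.2 RPKM in the WT pair, 23.4 and 26.04 in the Cdc42+/- pair and 29.3 and 31.4 in the Cdc42-/- pair (log2 fold change against WT 0.25, SE 0.11, adjusted p = 0.22). Ndufv1, which binds NADH and the flavin, was at 42.7 and 35.5 in the WT pair, 38.3 and 44.9 in the Cdc42+/- pair and 46.6 and 59.0 in the Cdc42-/- pair (0.42, SE 0.17, adjusted p = 0.16). Both Cdc42-/- libraries were above both WT libraries for each of these genes, and neither gene passed the threshold.

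The accessory subunits with the highest estimates were Ndufb6, Ndufb8 and the X-linked Ndufa1 described further on, all of the membrane arm. Ndufb6 stood at 32.7 and 31.0 RPKM in the WT pair, 30.8 and 30.3 in the Cdc42+/- pair and 42.7 and 59.8 in the Cdc42-/- pair (log2 fold change 0.65, SE 0.17, adjusted p = 0.059). Ndufb8 stood at 51.3 and 50.5 in the WT pair, 55.5 and 47.7 in the Cdc42+/- pair and 64.3 and 85.2 in the Cdc42-/- pair (0.53, SE 0.16, adjusted p = 0.084). Both Cdc42-/- libraries of these genes were above the other 4, with replicate 2 well above replicate 1, and neither passed the threshold.

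The lowest estimates of complex I belonged to an assembly factor and small accessory subunits. Ndufaf4, an early assembly factor, stood at 7.09 and 9.65 RPKM in the WT pair, 5.88 and 6.90 in the Cdc42+/- pair and 4.90 and 6.33 in the Cdc42-/- pair (log2 fold change -0.50, SE 0.21, adjusted p = 0.18). Ndufa7 stood at 36.1 and 37.8 in the WT pair, 30.9 and 36.1 in the Cdc42+/- pair and 23.4 and 32.7 in the Cdc42-/- pair (-0.40, SE 0.18, adjusted p = 0.19). Ndufa2 stood at 52.1 and 71.8 in the WT pair, 52.2 and 51.9 in the Cdc42+/- pair and 39.1 and 55.6 in the Cdc42-/- pair (-0.38, SE 0.21, adjusted p = 0.28). Cdc42-/- replicate 1 was the lowest of the 6 libraries for all 3 genes, and replicate 2 overlapped WT for Ndufa2.

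In complex II, Sdhb alone of 4 members was called, and the median log2 fold change of 0.39 was 0.17 without Cdc42-/- replicate 2 and 0.61 without replicate 1. The flavoprotein Sdha, which oxidises succinate, was at 87.9 and 89.7 RPKM in the WT pair, 91.3 and 92.5 in the Cdc42+/- pair and 76.7 and 100.0 in the Cdc42-/- pair (log2 fold change -0.02, SE 0.14, 95% confidence interval -0.36 to 0.32). The membrane anchor Sdhc was at 41.2 and 42.9 in the WT pair, 48.5 and 41.1 in the Cdc42+/- pair and 43.6 and 58.1 in the Cdc42-/- pair (0.25, SE 0.16, adjusted p = 0.34). The other anchor, Sdhd, was at 46.7 and 36.0 in the WT pair, 44.8 and 47.0 in the Cdc42+/- pair and 50.3 and 69.8 in the Cdc42-/- pair (0.52, SE 0.19, adjusted p = 0.14). The anchors were thus highest in Cdc42-/- replicate 2, and Sdha had its lowest and its highest value in the Cdc42-/- pair.

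In complex III, 1 of 8 members, Uqcrfs1, was called, and the median log2 fold change of 0.36 was 0.07 without Cdc42-/- replicate 2 and 0.53 without replicate 1. The next highest estimate was for Uqcrq, a small accessory subunit, at 58.9 and 76.8 RPKM in the WT pair, 70.1 and 66.4 in the Cdc42+/- pair and 80.3 and 110.1 in the Cdc42-/- pair (log2 fold change 0.48, SE 0.19, adjusted p = 0.16). Uqcr11 was at 43.5 and 45.5 in the WT pair, 53.5 and 61.6 in the Cdc42+/- pair and 45.2 and 82.4 in the Cdc42-/- pair (0.45, SE 0.27, adjusted p = 0.31). Uqcrh, in contrast, was at 221 and 253 in the WT pair, 224 and 249 in the Cdc42+/- pair and 158 and 213 in the Cdc42-/- pair (-0.37, SE 0.17, adjusted p = 0.21). Both Cdc42-/- libraries of Uqcrh were below the other 4 libraries, while Uqcr11 was raised in only 1 of them.

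Of the remaining complex III members, the core proteins Uqcrc1 and Uqcrc2 differed in their pattern. Uqcrc1 was at 74.1 and 87.5 RPKM in the WT pair, 81.2 and 88.4 in the Cdc42+/- pair and 98.2 and 112 in the Cdc42-/- pair (log2 fold change 0.38, SE 0.13, adjusted p = 0.12). Uqcrc2 was at 82.9 and 75.0 in the WT pair, 76.9 and 78.7 in the Cdc42+/- pair and 75.1 and 109.9 in the Cdc42-/- pair (0.20, SE 0.18, adjusted p = 0.50). Uqcrb was at 70.1 and 99.2 in the WT pair, 72.9 and 71.4 in the Cdc42+/- pair and 55.7 and 86.6 in the Cdc42-/- pair (-0.26, SE 0.24, adjusted p = 0.52). Of these 3 genes only Uqcrc1 had both Cdc42-/- libraries above the other 4.

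Complex IV had a median log2 fold change of 0.40 over 13 members with 11 positive, among them Cox6b2 and Cox7a1, each of which entered the test only through a knockout genotype. Without these isoforms, at a minimum of 5 RPKM, it was 0.28 with 9 positive. Over all 13 it was 0.06 without Cdc42-/- replicate 2 and 0.68 without replicate 1. Besides Cox6b2 and Cox7a2l, none was called. Cox8a, a small subunit, was at 99.3 and 107 RPKM in the WT pair, 114 and 111 in the Cdc42+/- pair and 142 and 205 in the Cdc42-/- pair (log2 fold change 0.72, SE 0.18, adjusted p = 0.052, past 0.05 in 5 of 15 alternatives). Cox5a, which faces the matrix, was at 82.5 and 78.0 in the WT pair, 82.4 and 86.0 in the Cdc42+/- pair and 108 and 169 in the Cdc42-/- pair (0.75, SE 0.20, adjusted p = 0.068). Both were higher in the 2 Cdc42-/- libraries than in the other 4, with a log2 fold change of 0.46 and 0.43 without replicate 2.

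Cox4i1 and Cox6c, in contrast, did not separate the genotypes. Cox4i1 was at 263 and 306 RPKM in the WT pair, 263 and 264 in the Cdc42+/- pair and 244 and 332 in the Cdc42-/- pair (log2 fold change 0.01, 95% confidence interval -0.405 to 0.419, with a negative sign under both other scalings). Cox6c was at 138 and 149 in the WT pair, 134 and 138 in the Cdc42+/- pair and 113 and 161 in the Cdc42-/- pair (-0.09, 95% confidence interval -0.52 to 0.34). For both, the Cdc42-/- libraries held the lowest and the highest of the 6 values.

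In complex V, the ATP synthase, none of 17 members was called against WT, and the median log2 fold change of 0.17 became -0.17 without Cdc42-/- replicate 2 and 0.41 without replicate 1. The catalytic subunit Atp5b stood at 311 and 323 RPKM in the WT pair, 312 and 309 in the Cdc42+/- pair and 399 and 516 in the Cdc42-/- pair (log2 fold change 0.52, SE 0.15, adjusted p = 0.073, with a log2 fold change of 0.33 without Cdc42-/- replicate 2). Its partner Atp5a1 stood at 229 and 233 in the WT pair, 225 and 230.3 in the Cdc42+/- pair and 247 and 330.2 in the Cdc42-/- pair (0.31, SE 0.15, adjusted p = 0.24). Atp5e, the epsilon subunit of the central stalk, stood at 219 and 269 in the WT pair, 224 and 237 in the Cdc42+/- pair and 168 and 244 in the Cdc42-/- pair (-0.26, SE 0.20, adjusted p = 0.43). Both catalytic-head subunits were above the other 4 libraries in each Cdc42-/- library, whereas Atp5e was lowest in replicate 1.

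Despite their symbols, Atp5s and Atp5sl encode accessory proteins now called Dmac2l and Dmac2 and not core ATP synthase subunits. Atp5s stood at 3.89 and 4.88 RPKM in the WT pair, 3.16 and 2.65 in the Cdc42+/- pair and 1.83 and 2.43 in the Cdc42-/- pair (log2 fold change -0.78, SE 0.22, adjusted p = 0.071). Atp5sl stood at 18.1 and 14.7 in the WT pair, 15.7 and 18.2 in the Cdc42+/- pair and 11.2 and 8.76 in the Cdc42-/- pair (-0.66, SE 0.18, adjusted p = 0.065). Both were lowest in the 2 Cdc42-/- libraries, and Atp5sl was one of 3 members whose level in Cdc42-/- replicate 2 was below that in replicate 1. The fold change was negative for these 2 genes and for Cox7a2l, the 3 members that are not structural subunits. It was positive in 54 of 75 subunits and 3 of 8 assembly factors (51.0% of all genes tested). The split by class was not planned beforehand, so these counts are a description.

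The c ring of ATP synthase, through which protons pass, is built from 1 mature protein that is encoded by 3 genes, and their balance differed between genotypes. Atp5g3 stood at 143 and 154 RPKM in the WT pair, 137 and 133 in the Cdc42+/- pair and 195 and 255 in the Cdc42-/- pair. Atp5g2 stood at 196 and 203 in the WT pair, 224 and 209 in the Cdc42+/- pair and 158 and 226 in the Cdc42-/- pair. Atp5g1 stood at 51.1 and 48.0 in the WT pair, 46.2 and 42.3 in the Cdc42+/- pair and 42.4 and 82.5 in the Cdc42-/- pair. Atp5g3 was above the other 4 libraries in both Cdc42-/- libraries, whereas Atp5g2 and Atp5g1 were lower than WT in replicate 1 and higher in replicate 2.

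As a share of the summed RPKM of the 3 genes, Atp5g3 made up 36.6% and 38.1% in the WT pair, 33.7% and 34.5% in the Cdc42+/- pair and 49.3% and 45.2% in the Cdc42-/- pair. The share of Atp5g2 was 50.3% and 50.1% in the WT pair, 54.9% and 54.5% in the Cdc42+/- pair and 39.9% and 40.1% in the Cdc42-/- pair. Neither share overlapped between Cdc42-/- and the other genotypes, and Atp5g3 took the place of Atp5g2 as the largest source of c-subunit RNA in both Cdc42-/- libraries. The summed level was 390.2 and 405 RPKM in WT, 407 and 384 in Cdc42+/-, 395 in Cdc42-/- replicate 1 and 563 in replicate 2, so the share moved also in the library whose total did not. Against WT the log2 fold change of Atp5g3 was 0.58 (SE 0.15, adjusted p = 0.056, past 0.05 in 3 of 15 alternatives).

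The difference between the Cdc42-/- replicates was a property of nearly the whole module. Replicate 2 was above replicate 1 in 83 of 86 tested members (53.8% of all genes tested), the exceptions being Atp5sl, Ndufa11 and Ndufs7. Replicate 2 was the highest of the 6 libraries in 63 of all 87 members, and replicate 1 was the lowest in 31. The matching shares over all genes were not counted. The median difference of replicate 2 minus replicate 1 on the log2(RPKM + 1) scale was 0.41 in Cdc42-/-, 0.11 in WT and 0.03 in Cdc42+/-, against 0.04, -0.03 and 0.00 over all genes tested.

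**Figure D4:**
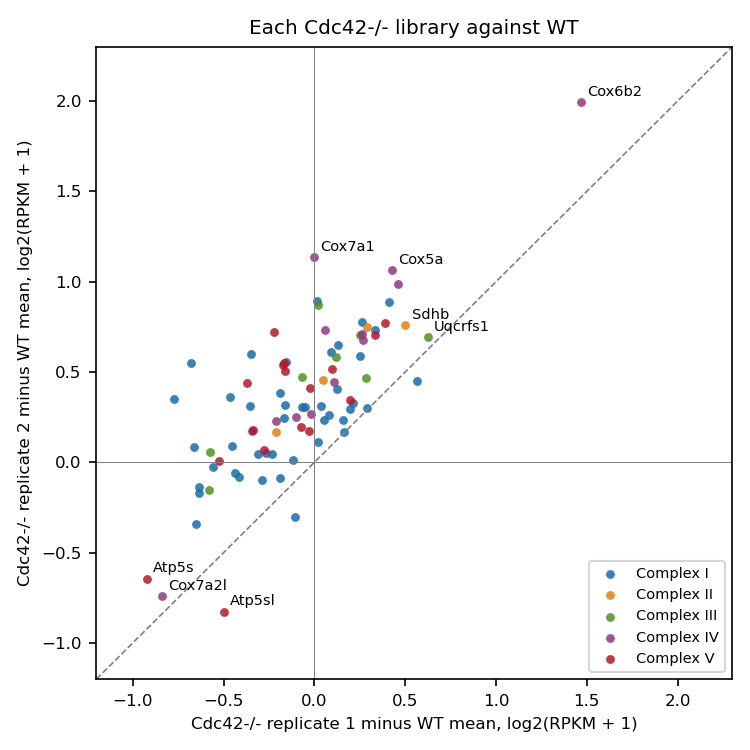
Log2(RPKM + 1) of the 86 tested members in Cdc42-/- replicate 1 (horizontal axis) and replicate 2 (vertical axis), each minus the WT mean; each point is a gene, coloured by complex as assigned from the symbol, and the dashed line marks equal values. Nearly all points lie above the line; Cox6b2, Uqcrfs1 and Sdhb are positive and Cox7a2l, Atp5s and Atp5sl negative in both libraries.

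Most members are short transcripts, with a median counted length of 800 nt against 2833 nt over all genes tested, and the same replicate difference varied with length over all genes. In Cdc42-/- the median difference was 0.25 for genes under 1 kb, 0.14 for 1 to 2 kb, 0.06 for 2 to 4 kb and -0.08 for 4 kb or more. In WT it ran from 0.08 under 1 kb to -0.07 for 4 kb or more. The members' difference in Cdc42-/- was larger than that of any length class, and the length trend ran the same way in each genotype. Length, the myeloid markers (825 RPKM in replicate 2 against 19.0 in replicate 1) and the neutrophil markers (519 against 31.99) all moved with the members' level between these libraries, and their part in it was not tested.

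**Figure D5:**
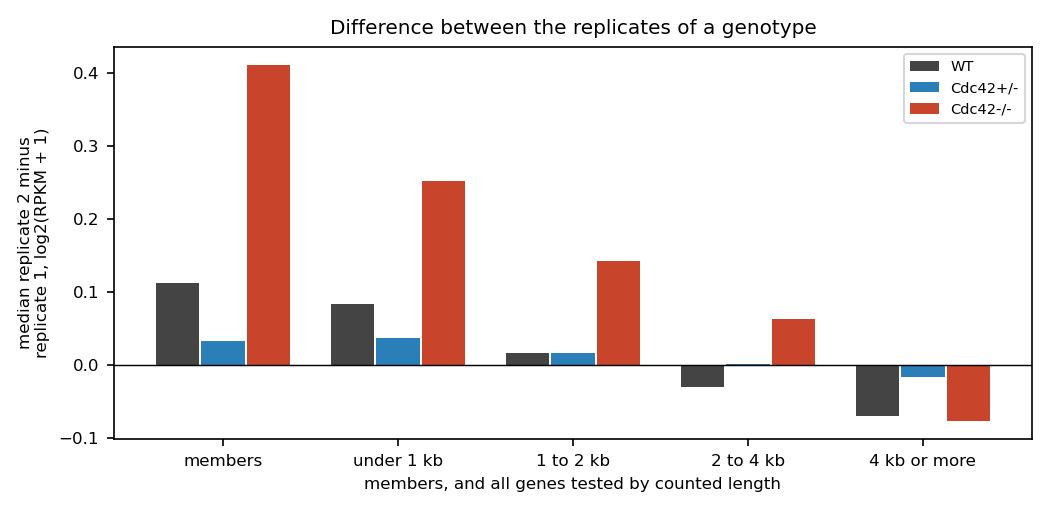
Median of replicate 2 minus replicate 1 on the log2(RPKM + 1) scale in each genotype, for the 86 tested members and for all genes tested by counted length; bars are medians over genes of a single pair of libraries, so they carry no error bar. The members' bar for Cdc42-/- (0.41) is higher than the bar for genes under 1 kb (0.25), and all 3 genotypes decline with length.

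Homozygous loss was also compared with Cdc42+/-, in libraries that share the Cdc42-/- replicates with the comparison above. Of 86 members 4 were called: Uqcrfs1, Atp5g3 and Cox6b2 were higher and Cox7a2l lower, Cox6b2 again having entered the test only through Cdc42-/- (8.22% of all genes were called, 4.68% higher and 3.54% lower). The median log2 fold change was 0.18 with 65 of 86 positive, against -0.01 over all genes. It was -0.03 without Cdc42-/- replicate 2 (6 members called higher and 6 lower, 14.9% of all genes) and 0.37 without replicate 1 (43 higher and 2 lower, 34.8%). In 34 members both Cdc42-/- libraries were above both Cdc42+/- libraries and in 5 both were below, where all genes gave 28.6% and 30.4% (59% in all).

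The log2 fold change against Cdc42+/- was -0.70 for Cox7a2l (SE 0.11, adjusted p = 0.018), 0.53 for Uqcrfs1 (SE 0.10, adjusted p = 0.030) and 0.72 for Atp5g3 (SE 0.15, adjusted p = 0.039), beside 1.497 for Cox6b2, given as a description. Sdhb did not pass in this comparison (0.46, SE 0.13, adjusted p = 0.092). The calls of Cox7a2l, Uqcrfs1 and Atp5g3 rested on the pooled spread of the 6 libraries. Leaving out a Cdc42+/- replicate gave adjusted p of 0.16 and 0.21 for Cox7a2l, 0.27 and 0.22 for Uqcrfs1, and 0.25 and 0.27 for Atp5g3 (replicates 1 and 2 in turn). Leaving out a WT replicate gave 0.063 for Cox7a2l with either one, 0.089 for Uqcrfs1 and 0.10 for Atp5g3.

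Heterozygous loss was compared with WT in the same fit, and no member passed (0 of 86), as was true of all genes (0%). The median member log2 fold change was -0.04, with 33 of 86 positive, where the median over all genes was 0.03. At an unadjusted p under 0.05 there was 1 member, Cox7a1, which entered the test only through the Cdc42+/- libraries, while among all genes the share was 4.32% (529), and voom on the recovered read counts also called 0 members. Both Cdc42+/- libraries lay above both WT libraries in 12 members and below in 20, where all genes gave 26.2% and 17% (43.2% in all). By complex the median was -0.06 for I, 0.12 for II, 0.05 for III, -0.06 for IV and -0.07 for V.

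The 3 members with the smallest p in that comparison were Cox7a1, Ndufa12 and Atp5s, the first of which reached the minimum mean only through the Cdc42+/- libraries (mean of the other 4 libraries 0.299 RPKM). Cox7a1, the heart and muscle isoform of a complex IV subunit, had 0 reads in both WT libraries, 8 in each Cdc42+/- library, and 0 and 4 in Cdc42-/-, which is 1.42 and 1.23 RPKM in Cdc42+/-, given as a description. Ndufa12, an accessory subunit at the NADH arm, stood at 38.3 and 43.5 RPKM in the WT pair, 29.2 and 34.0 in the Cdc42+/- pair and 38.8 and 50.7 in the Cdc42-/- pair (log2 fold change of Cdc42+/- against WT -0.36, SE 0.16, unadjusted p = 0.067). The 2 Cdc42+/- libraries of Ndufa12 were the lowest of the 6.

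Among isoforms, the ubiquitous forms made up nearly all of the RNA. Ndufa4, once placed in complex I and now known as a complex IV subunit, was at 122 and 122 RPKM in the WT pair, 126 and 140.2 in the Cdc42+/- pair and 133 and 162 in the Cdc42-/- pair, while its paralog Ndufa4l2 had reads only in WT replicate 2 (8) and Cdc42-/- replicate 2 (12) and was too low to test. Cox6a1 was at 99.7 and 132 in the WT pair, 104 and 112 in the Cdc42+/- pair and 139 and 184 in the Cdc42-/- pair (log2 fold change 0.47, SE 0.19, adjusted p = 0.16). Cox7a2 was at 52.5 and 56.9 in the WT pair, 56.3 and 54.5 in the Cdc42+/- pair and 59.0 and 74.6 in the Cdc42-/- pair (0.28, SE 0.14, adjusted p = 0.235), so Cox7a2l differed from its closest paralog in both direction and call. The paralogs Cox4i2, Cox6a2, Cox8b and Cox8c were not analysed here.

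Members on the X chromosome were Ndufa1, Ndufb11 and Cox7b. Ndufa1 stood at 42.2 and 42.6 RPKM in the WT pair, 51.5 and 56.3 in the Cdc42+/- pair and 51.2 and 73.5 in the Cdc42-/- pair (log2 fold change of Cdc42-/- against WT 0.52, SE 0.18, adjusted p = 0.11). Ndufb11 stood at 62.6 and 73.3 in the WT pair, 61.6 and 64.4 in the Cdc42+/- pair and 68.7 and 73.3 in the Cdc42-/- pair, and Cox7b at 59.5 and 66.7, 56.8 and 59.9, and 58.8 and 75.2. For these 2 genes the estimates against WT (0.07 and 0.08) changed sign under upper-quartile scaling. Xist, the RNA that coats the inactive X chromosome of female cells, was at 0.199 and 1.126 RPKM in the WT pair, 99.3 and 93.3 in the Cdc42+/- pair and 87.4 and 21.2 in the Cdc42-/- pair. The Xist level thus separated WT from both knockout genotypes, and a difference in sex and one in genotype cannot be told apart in any comparison with WT.

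The same comparisons were read for genes around the pathway. Among 13 tested carriers and partners outside the symbol rule, such as cytochrome c and the adenine nucleotide transporters, the median log2 fold change of Cdc42-/- against WT was 0.52 (12 of 13 positive), 0.26 without Cdc42-/- replicate 2 and 0.75 without replicate 1. Of the 13, 9 had an unadjusted p under 0.05 (29.3% of all genes), and 1 was called (11.4% of all genes). This was Atpif1, which encodes the inhibitory factor of ATP synthase, at 12.8 and 12.5 RPKM in the WT pair, 15.03 and 16.1 in the Cdc42+/- pair and 21.2 and 31.3 in the Cdc42-/- pair (0.97, adjusted p = 0.028). It was higher in both Cdc42-/- libraries than in the other 4. Among 17 enzymes of the tricarboxylic acid cycle and pyruvate dehydrogenase, the median was 0.20 with 12 positive (0.11 without Cdc42-/- replicate 2 and 0.35 without replicate 1), and none was called against WT (9 at an unadjusted p under 0.05). Against Cdc42+/- 1 of the 17 was called, Idh2 (16.2 and 15.1 RPKM in Cdc42+/-, 24.9 and 30.3 in Cdc42-/-, adjusted p = 0.040), where 8.22% of all genes were. Among 42 assembly factors of the 5 complexes the median was -0.04 and 0 were called (4 at an unadjusted p under 0.05), but the sign turned with the library, from -0.14 without Cdc42-/- replicate 2 to 0.08 without replicate 1. Among 14 regulators of mitochondrial transcription it was -0.06 with 0 called (0 also at an unadjusted p under 0.05), and -0.03 and -0.05 without replicates 2 and 1.

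Proliferation genes marked the Cdc42-/- samples as well. All 14 of the list were called higher in Cdc42-/- than in WT, where 6.86% of all genes were (median log2 fold change 3.44, 3.15 without Cdc42-/- replicate 2 and 3.74 without replicate 1), and their summed level was 204 and 200.3 RPKM in the WT pair, 362 and 326 in the Cdc42+/- pair and 938 and 1354 in the Cdc42-/- pair. Mki67, the proliferation marker, stood at 6.53 and 7.73 RPKM in the WT pair, 28.004 and 21.6 in the Cdc42+/- pair and 118 and 144 in the Cdc42-/- pair. Proliferation genes were raised in both Cdc42-/- libraries, unlike the median member level, which was raised in 1 of them. Their part in the levels of Uqcrfs1, Sdhb, Cox6b2 and Cox7a2l was not tested.

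The genes outside the module whose pattern was most like the mean of the tested members were, by Pearson correlation over the 6 libraries, Ms4a8a (0.997), Clec4a2 (0.997), Taco1 (0.995), Pcyox1 (0.995) and Hlx (0.993). All 5 were highest in Cdc42-/- replicate 2. Taco1, a translational activator of a mitochondrially encoded complex IV subunit, stood at 7.47 and 9.43 RPKM in the WT pair, 7.80 and 8.19 in the Cdc42+/- pair and 7.57 and 13.7 in the Cdc42-/- pair. Clec4a2, a lectin of myeloid cells, stood at 2.28 RPKM in that library and at 0.0444 to 0.454 in the other 5. With 6 libraries, 1 of which stands apart, such likeness is a description of that library.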

How the data were processed

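RNA-seq was made from total RNA of sorted splenic Treg cells with an Illumina TruSeq kit, per the labels' protocols, 2 mice per genotype per the series design, 1 library each. TopHat and mm10 are named in the submitters' processing notes with no role given; the counting tool, strand setting and treatment of multiply mapping reads are not given in the sources used here. The deposited library columns hold RPKM computed by the authors, worked out from the values: combined with the authors' deposited group means (a signal, the reads over a size factor), 100% of values gave whole reads within 0.01. The authors' deposited tables also give a fold change (ratio), its log2 value, a p-value and an adjusted p-value, by an unnamed test.

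Here limma 3.58.1 (R 4.3.3; lmFit, eBayes with a mean-variance trend) was fitted to log2(RPKM + 1) of the 6 libraries together for the 12233 genes whose mean reached 0.5 RPKM, two-sided, with Benjamini-Hochberg adjustment and a threshold of 0.05. Fold changes on that scale understate low genes. The fit was run on simulated reads with the same spread in all 6 libraries. The Cdc42-/- pair spread more widely than the other pairs, so that run does not vouch for the fit here. Printed values cover, per complex, the 3 highest and 3 lowest fold changes, the paralogs, X-linked and core members, and the 3 smallest p where nothing passed; 1 core member is not reported here. The members, lists and markers were chosen with earlier results of these data known. B cell, CD8 T cell and NK cell markers summed to at most 18.9, 10.6 and 1.132 RPKM in any library. Alternatives changed the pseudocount, filter, scaling, libraries, weights, block and model. By gene ID 87 members matched RefSeq (GRCm38.p6) and 28 overlap another annotated gene (of those described, Atp5a1, Atp5b, Atp5sl, Cox7a2, Ndufa1, Ndufa2, Ndufa4l2, Ndufaf4, Ndufb11, Ndufs1, Sdhc, Uqcrc2, Uqcrh and Uqcrq), where shared reads cannot be told apart; many members also have pseudogene copies.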

Additional observations from a re-analysis of the deposited data

How the results depend on the processing

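Over the 6 fits that each leave out 1 library, the members called ranged from 0 to 42 for Cdc42-/- against WT and from 0 to 45 for Cdc42-/- against Cdc42+/-, beside 259 to 4433 and 0 to 4263 genes overall. For Cdc42+/- against WT they were 0 members and 0 to 76 genes. The median member log2 fold change ranged from -0.0694 to 0.32 against WT and from -0.0324 to 0.37 against Cdc42+/-, the lower end being without Cdc42-/- replicate 2 and the upper without replicate 1. Against WT, 12 named members changed sign among these fits: Atp5e (-0.53 to 0.0094), Atp5g1 (-0.22 to 0.72), Atp5g2 (-0.34 to 0.18), Cox4i1 (-0.21 to 0.23), Cox6b1 (-0.0186 to 0.27), Cox6c (-0.35 to 0.17), Cox7b (-0.10 to 0.25), Ndufa12 (-0.07 to 0.31), Ndufb11 (-0.0455 to 0.18), Sdha (-0.21 to 0.17), Uqcrb (-0.57 to 0.0547) and Uqcrc2 (-0.0689 to 0.47).

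With only the compared genotypes in the fit, 1 member and 536 genes were called for Cdc42-/- against WT, 0 and 276 against Cdc42+/-, and 60 genes for Cdc42+/- against WT. Array weights gave 885 genes for Cdc42-/- and 88 for Cdc42+/- against WT, and voom 1 gene for the latter. A minimum of 5 RPKM gave 7 members for Cdc42-/- against WT (8.64% of those tested), beside 1264 of all genes (14.9%). Upper-quartile scaling turned Cox4i1 (-0.0770), Ndufb11 (-0.0169) and Cox7b (-0.0061), and median-ratio scaling Cox4i1 (-0.0076). Upper-quartile scaling also moved the median of all genes for Cdc42-/- against WT from 0.01 to -0.06 and that of the members from 0.16 to 0.08, with 49 of 86 positive. Subunits alone, an alternative chosen after seeing the data, gave a median of 0.18 (-0.02 without Cdc42-/- replicate 2 and 0.39 without replicate 1). Replicate numbers did not pair the samples (correlations of deviations 0.0177, 0.202 and -0.0343), and the replicate block gave 4, 0 and 3 members for Cdc42-/- against WT, Cdc42+/- against WT and Cdc42-/- against Cdc42+/-, with 1144, 0 and 809 genes. With 2 mice a genotype, p-values measure the spread between these mice only.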
